A study of Mus musculus with 3 samples.

Results

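The cell cycle genes described here are 45 of the 22072 gene symbols listed in the deposited tables. They were listed by name for their textbook roles, with earlier results of these data known, and all 45 were found. By role they are 11 drivers of G1 phase, 11 genes of S phase, 15 genes of mitosis, and 8 inhibitors and pocket proteins. RNA was sequenced from ScxGFP-positive cells of mouse embryonic hindlimbs at the embryonic ages E11.5, E13.5 and also E15.5. The gene Scx encodes the transcription factor scleraxis, which marks progenitors of tendons and ligaments, and a GFP reporter of Scx was used to sort them. All embryos were of mixed strain background and no treatment is named. The pools held 18, 12 and 11 hindlimbs in order of age and were sequenced as a single library each, so embryos cannot be told apart.

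Since every stage has 1 library, no difference below has a replicate check and no test was possible. Each difference is one between 2 libraries, and the 95% Poisson intervals printed with single genes are approximate and hold counting error alone. The E13.5 library enters both steps, from E11.5 to E13.5 and from E13.5 to E15.5, so the steps are not independent of each other. Sorted cells were measured in bulk, so fewer cycling cells and less RNA per cycling cell cannot be told apart.

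The cycle of a dividing cell runs from G1 through DNA synthesis in S phase and a gap phase to mitosis. D cyclins with Cdk4 or Cdk6 start the phosphorylation of the pocket protein Rb1, which otherwise holds E2F factors back from the genes of S phase; cyclin E with Cdk2 continues it, and B cyclins with Cdk1 drive entry into mitosis. INK4 inhibitors bind Cdk4 and Cdk6, CIP/KIP inhibitors bind cyclin-Cdk complexes more broadly, and cells that leave the cycle to differentiate often carry more of both.

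Levels are given as FPKM, the number of sequenced fragments per kilobase of a transcript after scaling for library depth, summed over the transcripts of a gene. Because FPKM is per length, levels of different genes can be set side by side. A change is a difference of log2(FPKM + 1), a scale that understates changes of low genes. Estimated depth was about 13500000, 12000000 and 16800000 reads on the listed transcripts in stage order, and at 10 FPKM a transcript of 2000 bases then had a counting error of 3.69 to 4.07%. Of the 45 members, 43 had a mean of at least 1 FPKM over the 3 libraries. The others, Cdkn2a and Cdkn2b, were near 0 and enter no count or median unless it is said to be over all 8 inhibitors and pocket proteins.

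The sort was checked on its target and on marker genes. Scx stood at 375, 410 and 213 FPKM in stage order, and the summed level of 8 tendon markers at 443, 913 and 2681 FPKM, with the mature tendon marker Tnmd listed at 0 at E11.5. That sum is no independent check of the sort, since it includes Scx itself, 375 of the 443 FPKM at E11.5. At E15.5 most of it came from Col1a1 and Col1a2, at 1322 and 846 FPKM. Markers of other cell types also moved with stage. Of 9 skeletal muscle markers 4, 6 and 8 were at 1 FPKM or more, with sums of 13.51, 65.4 and 226 FPKM, and 8 cartilage markers summed to 150, 234 and 326 FPKM. Sums of the erythroid, endothelial and epidermal lists were highest at E15.5, at 21.1, 8.79 and 10.7 FPKM, while the leukocyte list summed to 0.849 to 2.45 FPKM with Ptprc, C1qa, C1qb, C1qc and Tyrobp at 0 at E11.5, and the Schwann cell list to 2.14 to 2.40 FPKM. Such sums hide members that went the other way. From E13.5 to E15.5, 3 of the 5 erythroid and 2 of the 3 epidermal markers with a mean of at least 1 FPKM were lower. So were 3 of the 8 cartilage markers, Sox9, Sox5 and Sox6. The part of such cells in the changes of the cell cycle genes was not tested.

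Promoters of cell cycle genes carry short letter motifs that are known to time their use within the cycle. The CHR element (cell cycle genes homology region, searched as TTTGAA or TTCGAA) is known to be bound by the DREAM complex, which holds G2 and mitosis genes silent in resting cells. The CCAAT box is bound by the factor NF-Y, and E2F factors bind sites searched here as TTTCGCGC, TTTGGCGC, TTTCCCGC or TTTGCCGC. All letters were searched on both strands in windows from 250 bases before to 50 bases after the RefSeq start (GRCm38.p6). A match is a description and not a binding site.

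The promoters shown next were picked to set the mitosis pattern beside S phase and G1 promoters whose genes are followed below. Cdk1, Top2a, Mki67 and Cdc20 stand for mitosis, Mcm6 and Rrm2 for S phase, and Ccnd3 for G1. Each is read 5′ to 3′ on the strand of the gene, ends at the last base before the RefSeq start, and has matches of any of the 3 motifs in capitals.
Cdk1, chr10:69352913-69353062, minus strand: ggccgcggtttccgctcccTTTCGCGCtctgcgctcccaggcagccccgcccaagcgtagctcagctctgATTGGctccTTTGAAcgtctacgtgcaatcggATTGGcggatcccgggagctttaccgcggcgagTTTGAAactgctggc
Top2a, chr11:99024190-99024389, minus strand: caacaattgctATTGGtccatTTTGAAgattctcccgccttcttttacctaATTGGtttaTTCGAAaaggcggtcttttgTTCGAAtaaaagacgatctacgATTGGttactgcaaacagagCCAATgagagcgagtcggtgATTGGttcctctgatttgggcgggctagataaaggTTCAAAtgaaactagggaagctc
Mki67, chr7:135716380-135716579, minus strand: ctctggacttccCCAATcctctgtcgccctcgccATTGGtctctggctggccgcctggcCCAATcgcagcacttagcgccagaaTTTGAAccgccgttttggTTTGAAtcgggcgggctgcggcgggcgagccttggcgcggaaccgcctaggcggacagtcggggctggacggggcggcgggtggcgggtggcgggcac
Cdc20, chr4:118437344-118437443, minus strand: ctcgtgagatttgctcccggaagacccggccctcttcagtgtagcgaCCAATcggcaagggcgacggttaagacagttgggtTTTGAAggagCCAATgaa
Mcm6, chr1:128359706-128359855, minus strand: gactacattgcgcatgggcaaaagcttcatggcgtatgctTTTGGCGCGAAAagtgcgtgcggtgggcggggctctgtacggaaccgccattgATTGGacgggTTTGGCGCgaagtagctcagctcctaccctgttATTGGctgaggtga
Rrm2, chr12:24708154-24708253, plus strand: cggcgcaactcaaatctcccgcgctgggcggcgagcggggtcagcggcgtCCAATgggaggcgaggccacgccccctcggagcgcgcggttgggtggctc
Ccnd3, chr17:47593317-47593466, plus strand: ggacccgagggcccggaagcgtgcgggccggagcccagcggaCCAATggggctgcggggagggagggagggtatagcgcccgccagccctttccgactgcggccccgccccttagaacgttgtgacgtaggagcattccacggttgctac

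The printed stretch of Top2a holds 4 CHR and 5 CCAAT matches, that of Mki67 2 CHR and 3 CCAAT matches, and that of Cdc20 1 CHR and 2 CCAAT matches. Cdk1 has 2 CHR matches, 2 CCAAT matches and 1 E2F match. In Mcm6 there were 3 E2F matches, the first 2 of which overlap as 1 run of capitals, with 2 CCAAT matches and no CHR letters. Rrm2 and Ccnd3 each show 1 CCAAT match alone. The Ccnd3 stretch is the start of its short transcript (mm9, chr17:47730415-47736637), to which between 95.9% and nearly all of the FPKM of Ccnd3 was assigned in each library.

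RefSeq promoters were found for 37 of the 45 members, 43 promoters in all, and the table has no entry for Ccnd1, Ccnd2, Ccne2, Mcm4, Ccna2, Cdc25c, Aurkb and Rb1. CHR letters were in 10 of 12 mitosis promoters, against 2 of 11 in S phase, 1 of 10 in G1, 1 of 10 among inhibitors and pocket proteins, and 19.2% of all 32851 promoters. CCAAT was in 11 of 12 mitosis and 9 of 11 S phase promoters, in 5 of 10 and 4 of 10 of the remaining groups, and in 37.4% of all promoters. E2F letters stood in 4 of 11 S phase and 3 of 10 G1 promoters, but in 1 of 12 mitosis promoters, 2 of 10 promoters of inhibitors and pocket proteins, and 2.26% of all promoters. The mitosis promoters without CHR letters in this window were those of Ccnb1 and Birc5.

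**Figure D1:**
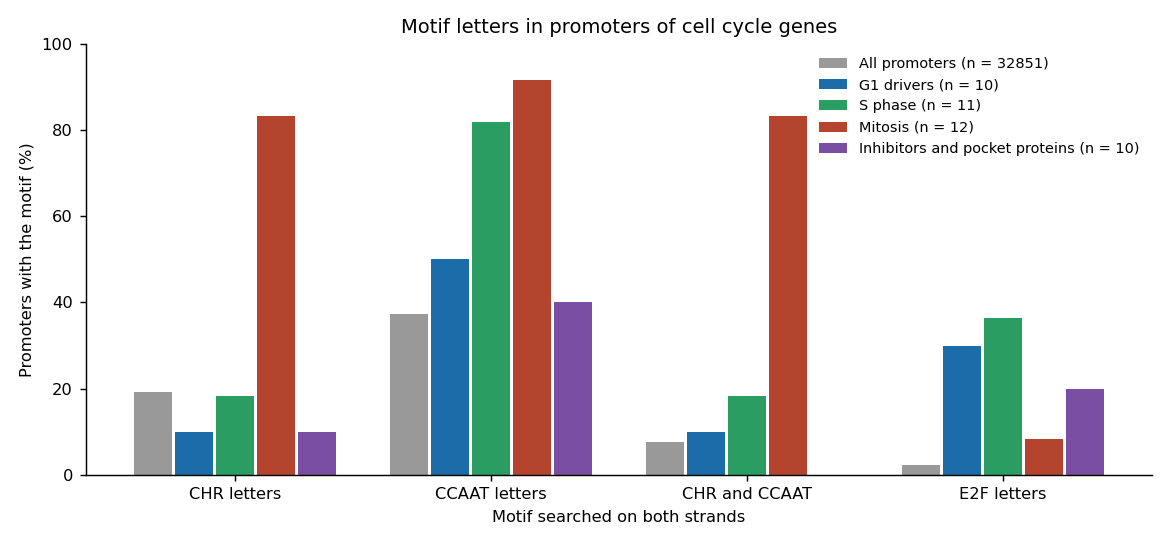
Share of promoters (%, vertical axis) that hold CHR, CCAAT, both, or E2F letters, for all 32851 RefSeq promoters (grey) and for the promoters of each group of cell cycle genes, with n promoters in the key. CHR and CCAAT letters stood together in 10 of 12 mitosis promoters against 7.52% of all promoters, and E2F letters were more frequent in S phase and G1 promoters.

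In 3 of the 4 groups, G1 drivers, S phase and mitosis, more genes were lower at E13.5 than at E11.5 than were higher. Of the 6 inhibitors and pocket proteins compared, 5 were higher, a count shaped by the filter on level. It kept Cdkn2c, which passed only through its later stages, and left out Cdkn2a and Cdkn2b, both near 0 and lower at E13.5. Over all 8 without the filter 5 were higher, beside 57.4% of the genes that passed the filter. The share over all genes without the filter was not counted. Of the 43 members compared, 33 were lower and 10 higher, where 42.6% of all 10938 genes were lower. The median change was -0.40 against 0.07 for all genes. At least 1.5-fold lower were 13 of 43, where 4.7% of all genes were. At least 1.5-fold higher were 2 of 43, where 14.7% of all genes were. At 2-fold, 1 member was lower, Rrm2, beside 1.02% of all genes, and 0 were higher, beside 6%. In 30 members the counting interval lay wholly below 0, and in 8 wholly above. The share of all genes with such intervals was not counted, so these 2 counts have no background.

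From E13.5 to E15.5 the members differed little as a set. Their median change was 0.05 against 0.04 for all genes, and 24 members were higher and 19 lower, where 55.1% of all genes were higher. Rescaling each library to the mean FPKM sum multiplies all genes of a library by 1 factor. It moved the median of all genes to -0.13 with 65.5% of them lower, and 26 of the 43 members were lower under it. Values given below for rescaled libraries are to be read against that shift. At least 1.5-fold higher were 4 of 43 members beside 9.68% of 10934 genes, and 1 was at least 1.5-fold lower beside 3.43%. With rescaled libraries the 1.5-fold counts were 4 higher and 2 lower. At 2-fold, 2 were higher beside 3.58% and 0 lower beside 0.713%, and rescaling left 0 higher. The shares of members are near the background here.

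Over both steps together, E15.5 against E11.5, 14 of 43 members were at least 1.5-fold lower beside 8.64% of 10939 genes, and 5 of 43 at least 1.5-fold higher beside 23.1%. At 2-fold 3 members were lower, Bub1, Rrm2 and Aurka, beside 2.14%. The 2-fold higher members were Ccnd3 and Cdkn2c, beside 12.6% of all genes. With FPKM divided by median-of-ratios size factors, and likewise with rescaled libraries, the 2-fold counts were 2 higher and 5 lower. Of the 43 members, 27 were highest in the E11.5 library, 4 at E13.5 and 12 in the E15.5 library. The share of all genes highest at E11.5 was not counted, but it cannot pass the 42.6% that were lower at E13.5.

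**Figure D2:**
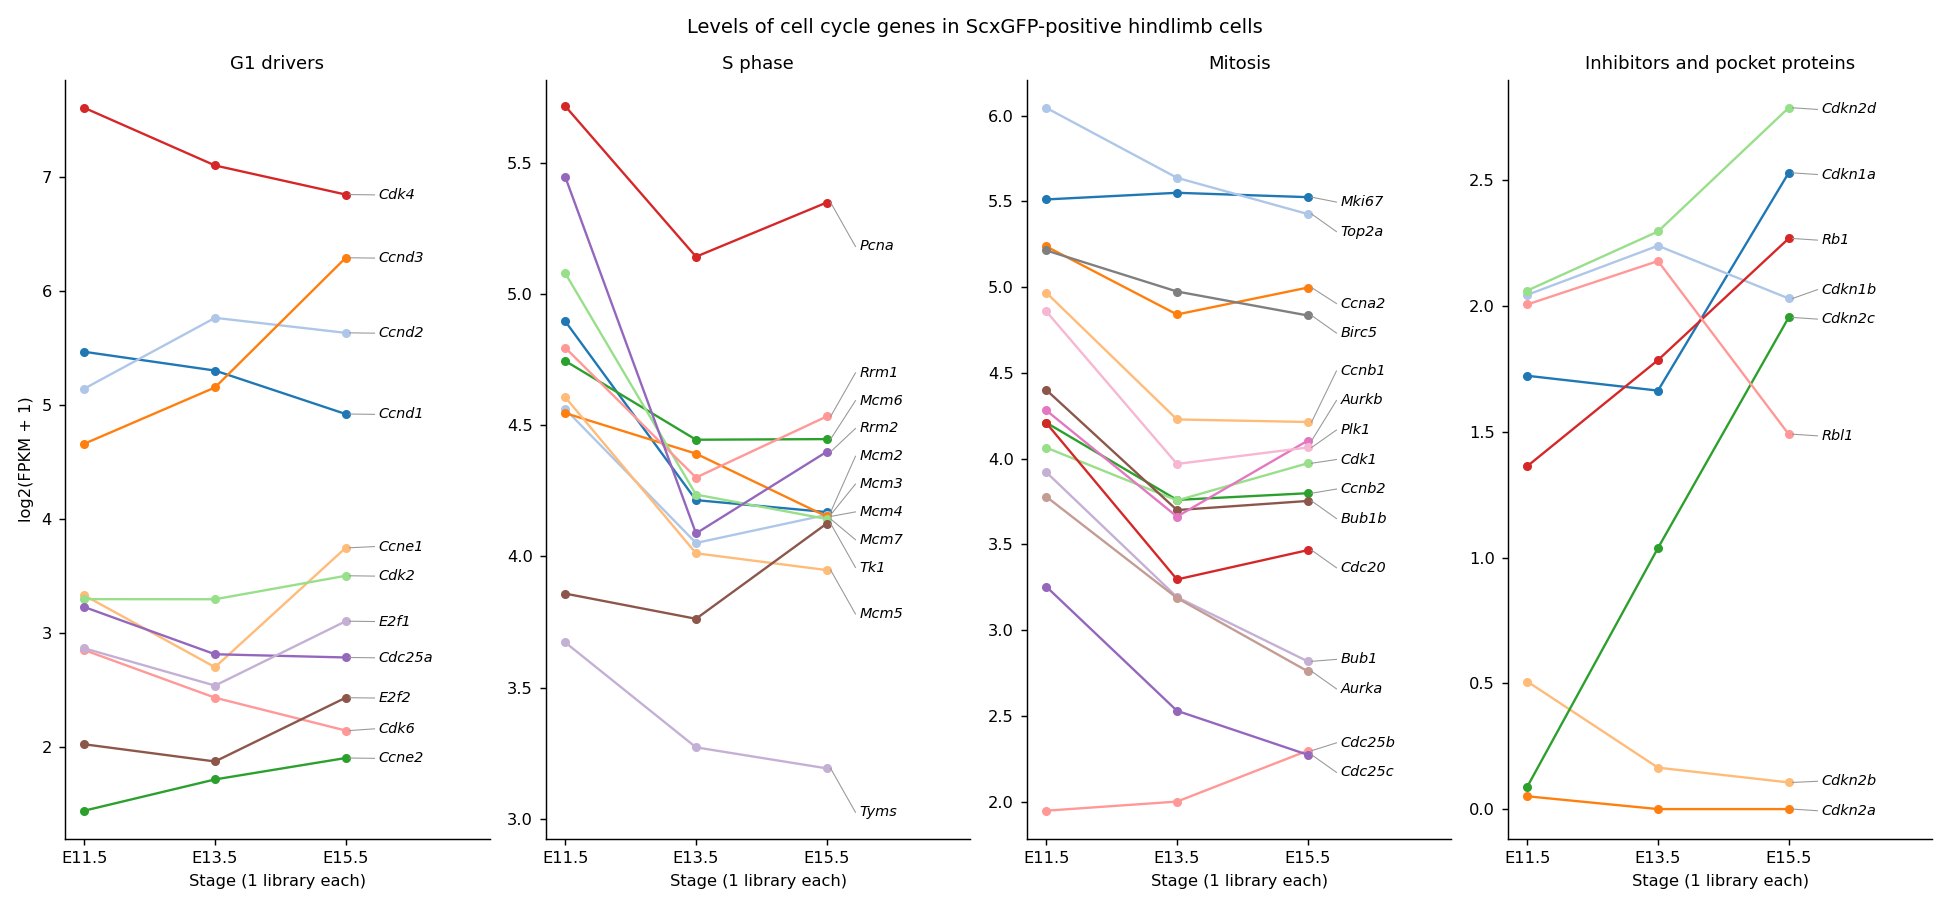
Level of each of the 45 genes as log2(FPKM + 1) (vertical axes, scaled separately) against stage, by group, with 1 point for each library and no error bars since each stage has 1 library. Most S phase and mitosis genes dip from E11.5 to E13.5 and stay near that level at E15.5, while Ccnd3 and Cdkn2c are higher at each later stage and Mki67 keeps to 44.6 to 45.9 FPKM.

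The D cyclins, which sense growth signals in G1, changed in make-up. Ccnd1 was at 43.2, 38.5 and 29.3 FPKM in stage order, a change of -0.55 over the whole course. Ccnd2 was at 34.3, 53.4 and 48.6 FPKM, highest at E13.5. Ccnd3 was at 24.3 FPKM (counting interval 23.2 to 25.4), then 34.6 (33.1 to 36.1) and then 77.4 (75.3 to 79.4). The order of the D cyclins by level was therefore Ccnd1, Ccnd2, Ccnd3 at E11.5 and Ccnd3, Ccnd2, Ccnd1 at E15.5, and in both libraries the counting intervals of the 3 genes were apart. The change of Ccnd3 was 0.49 in the first step and 1.14 in the second, which became 0.94 with libraries rescaled to the mean sum. Ccnd3 overlaps the gene Bysl, which stood at 3.38 to 4.61 FPKM in the 3 libraries, so some reads could be shared between them.

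Summed, the D cyclins stood at 102, 126 and 155 FPKM. The share of Ccnd1 in that sum was 42.4%, 30.4% and 18.9%. Ccnd2 held 33.7%, 42.2% and 31.3%. The share of Ccnd3 went from 23.8% through 27.4% to 49.8%. These shares are ratios within a library, so scaling a library does not move them. The summed markers of every cell type list, tendon among them, were also highest at E15.5. The part of these cell types in the Ccnd3 level was not tested. The cartilage factors Sox9, Sox5 and Sox6 were instead lowest at E15.5, at 22.5, 3.61 and 2.79 FPKM.

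Their kinase partners moved the other way. Cdk4, which with D cyclins phosphorylates Rb1, was the most abundant member at each stage, at 194 FPKM (190 to 198), 136 (133 to 140) and 114 (111 to 117). That placed it at the 99.5th percentile of all gene symbols at E11.5 and at the 99.1st at E15.5. Cdk6, its close relative, was far lower at 6.20, 4.39 and 3.41 FPKM, and Cdk4 held about 97% of their sum in every library. The sum of Cdk4 and Cdk6 was 1.97, 1.11 and 0.757 times that of the D cyclins in the same order of stages.

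The E cyclins and Cdk2 act later in G1. Ccne1 dipped and recovered, with 9.04 FPKM (8.36 to 9.77), 5.49 (4.91 to 6.12) and 12.4 (11.6 to 13.3), so none of its intervals overlapped. Its changes were -0.63 and 1.05, the latter 0.87 with rescaled libraries, and with Ccnd3 it made up the members at least 2-fold higher in the second step. Ccne2 was low at 1.71, 2.28 and 2.73 FPKM and overlaps Ints8, which stood at 10.9 to 15.6 FPKM, so some of its reads could belong to that gene. Cdk2 stood at 8.82, 8.81 and 10.3 FPKM, a first step of 0.00 that is without direction.

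The remaining G1 drivers are an activating phosphatase and E2F factors. Cdc25a, which removes inhibitory phosphates from cyclin-dependent kinases, was at 8.36, 6.02 and 5.88 FPKM. E2f1 was at 6.28, 4.80 and 7.58 FPKM, and E2f2 at 3.06, 2.65 and 4.39 FPKM, both lowest at E13.5. The G1 group thus had no common direction, with medians of -0.16, 0.19 and 0.24 for the first step, the second step and the whole course. With rescaled libraries the second-step and whole-course medians were 0.021 and 0.093. In the libraries as deposited, 4 of its 11 genes were highest at E11.5 and 6 at E15.5, shares that were not counted over all genes.

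Genes of S phase were lower at E13.5 in 11 of 11 cases, under each scaling tried, with a median change of -0.51. In the libraries as deposited, 42.6% of all genes were lower in that step. Rrm2, the regulated small subunit of ribonucleotide reductase that supplies deoxynucleotides, had the largest decrease of the 43 members in that step. Its levels were 42.6 FPKM (41.2 to 44.1), 16.0 (15.1 to 17.0) and 20.1 (19.1 to 21.1), changes of -1.36 and 0.31. Rrm1, the large subunit of the same enzyme, was at 26.8, 18.7 and 22.2 FPKM, a first step of -0.49. The level of Rrm2 was thus above that of Rrm1 at E11.5 and below it in both later libraries.

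The MCM proteins form the hexameric helicase that unwinds DNA at origins, with 1 copy of each in the ring. Their 6 genes kept close levels within each library, with a ratio of highest to lowest of 1.47, 1.37 and 1.44. Mcm7 changed most, at 32.8, 17.8 and 16.7 FPKM, a first step of -0.84. Mcm2 was at 28.8, 17.6 and 17.0 FPKM, and Mcm5 at 23.4, 15.1 and 14.4 FPKM. Mcm3 followed at 22.6, 15.6 and 16.9 FPKM. The smallest first steps among them were those of Mcm6, -0.30 (25.8, 20.8 and 20.8 FPKM), and Mcm4, -0.15 (22.4, 19.995 and 16.8 FPKM). Mcm7 hosts the small RNA genes Mir106b, Mir25 and Mir93, which were listed at 0 to 2.15 FPKM.

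Pcna, the sliding clamp of DNA polymerases, was the most abundant S phase gene at 51.6, 34.3 and 39.8 FPKM. Tyms, which makes thymidylate, was at 11.7, 8.66 and 8.14 FPKM. Tk1, the thymidine salvage kinase, was the exception in the group, and its neighbour Afmid, which overlaps it, was at 0.645 to 1.21 FPKM. It stood at 13.51, 12.6 and 16.5 FPKM, with a first step of -0.10 whose interval of -0.25 to 0.06 holds 0, and it was the only S phase gene with its highest level at E15.5. In the second step the S phase group had a median of 0.00, which was -0.02 with size factors and -0.19 with rescaled libraries. None of the 11 genes of the group reached 1.5-fold, where 9.68% of all genes were that much higher and 3.43% lower. From E11.5 to E15.5 the median of the S phase group was -0.40, and its summed level went from 302 through 197 to 209 FPKM.

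The mitosis genes had the lowest median of the 4 groups in the first step, -0.59. Of the 15, 13 were lower and 8 at least 1.5-fold lower, beside 42.6% and 4.7% of all genes. Plk1, a kinase of mitotic entry and spindle assembly, stood at 28.0 FPKM (26.9 to 29.2), 14.7 (13.8 to 15.6) and 15.7 (14.9 to 16.6). Cdc20, the activator of the anaphase-promoting complex, was at 17.5 (16.5 to 18.5), 8.82 (8.05 to 9.65) and 10.1 FPKM (9.30 to 10.9), and its first step of -0.91 was the largest in the group. Cdc20 overlaps Elovl1, which went the other way, from 2.55 through 3.85 to 8.69 FPKM. For Plk1 and Cdc20 the E11.5 library was high and the later libraries were close to each other.

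Cyclins and their kinase came next. Ccnb1 was at 30.3, 17.8 and 17.6 FPKM, a first step of -0.74, and Ccnb2 at 17.5, 12.5 and 12.9 FPKM, a first step of -0.45. Ccnb1 held 63.4% of the B cyclin sum at E11.5 and 57.6% at E15.5. Ccna2, the A cyclin of S phase and G2, was at 36.7, 27.7 and 30.9 FPKM and overlaps Exosc9, which was at 3.21 to 4.81 FPKM. Cdk1, the kinase these cyclins activate, differed less, with 15.7, 12.5 and 14.7 FPKM and a change of -0.09 over the whole course, whose interval of -0.19 to 0.00 holds 0. That change was -0.19 with size factors and -0.25 with rescaled libraries, so it depends on the scaling.

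Genes of the spindle checkpoint and the Aurora kinases split in the second step. Bub1, a checkpoint kinase at kinetochores, was at 14.2 FPKM (13.6 to 14.7), 8.15 (7.66 to 8.65) and 6.05 (5.67 to 6.45), lower at each stage, and its change of -1.10 over the course was the lowest of the 43 members. Its partner Bub1b was at 20.1, 12.0 and 12.5 FPKM. Aurka, the Aurora kinase of centrosomes, was at 12.7 (11.9 to 13.6), 8.11 (7.39 to 8.89) and 5.78 FPKM (5.22 to 6.37). Aurkb, the Aurora kinase of the chromosomal passenger complex, was at 18.4, 11.7 and 16.2 FPKM. Aurka and Aurkb were thus both lower at E13.5, by changes of -0.59 and -0.62, and then parted, with -0.43 for Aurka and 0.44 for Aurkb, directions that held under size factors and rescaling. Birc5, which encodes survivin, a passenger complex subunit, was at 36.1, 30.4 and 27.5 FPKM.

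The phosphatases of mitotic entry also differed from each other. Cdc25c was at 8.54, 4.78 and 3.84 FPKM, a change of -0.98 over the course. Cdc25b was low at 2.86, 3.003 and 3.92 FPKM. The share of Cdc25c in the sum of Cdc25a, Cdc25b and Cdc25c went from 43.2% to 28.1%, and that of Cdc25b from 14.5% to 28.7%.

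The proliferation marker Mki67, which coats mitotic chromosomes, did not follow the other mitosis genes. Its level was 44.6 FPKM (43.9 to 45.3), 45.9 (45.1 to 46.6) and 45.05 (44.4 to 45.7) in stage order. Its steps of 0.04 and -0.03 are small beside those of the group, and the first turned to -0.04 with size factors. Top2a, the DNA topoisomerase that untangles chromosomes and a marker read alongside it, was at 65.1, 48.8 and 42.0 FPKM, changes of -0.41 and -0.21. Cdc25b was the other mitosis gene not lower at E13.5, with a first step of 0.05 that turned negative with size factors.

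In the second step the mitosis group had a median of 0.04, with 8 genes higher and 7 lower. Of the 15, 0 reached 1.5-fold, where 9.68% of all genes were that much higher and 3.43% lower. With rescaled libraries the median was -0.15, close to the -0.13 of all genes, and Ccna2, Ccnb2, Cdc20, Bub1b and Plk1 changed sign with that shift. From E11.5 to E15.5 the median was -0.62, and the summed level went from 368 through 267 to 265 FPKM.

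**Figure D3:**
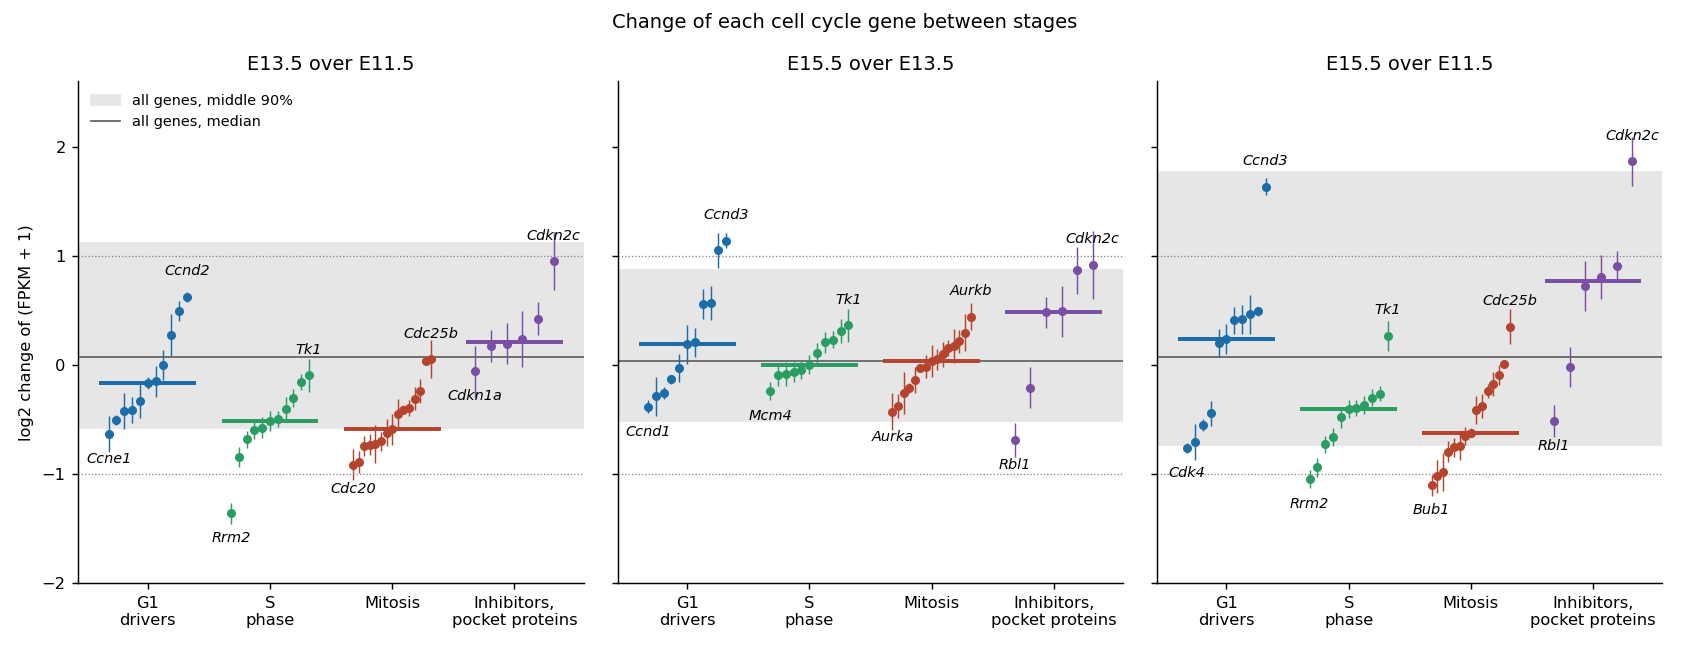
Change in log2(FPKM + 1) of the 43 compared genes for each pair of stages (panels), by group, with bars for 95% counting intervals, coloured lines for group medians, dotted lines at 2-fold and a grey band for the middle 90% of all genes. S phase and mitosis medians sit at -0.51 and -0.59 in the first panel and near 0 in the second, where rescaling the libraries puts them at -0.19 and -0.15 and all genes at -0.13.

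Inhibitors and pocket proteins did not move as one. Over all 8, with no filter on level, the medians were 0.18, 0.24 and 0.36 for the first step, the second step and the whole course. Over the 6 with a mean of at least 1 FPKM they were 0.21, 0.49 and 0.77, but that filter kept Cdkn2c, which passed only through the stages where it is high, and left out Cdkn2b, which was lower at the later stages. Cdkn2c, Cdkn2d and Rb1 were higher at each stage, whereas Cdkn1b and Rbl1 were highest at E13.5 and Cdkn1a was high at E15.5 alone. Among the 6 the levels ran from 0.0634 to 5.91 FPKM, so counting error is larger here than among the drivers. Summed over all 8 genes the group went from 13.7 through 16.9 to 22.3 FPKM, against 1010, 761 and 790 FPKM for the 37 drivers.

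Among the INK4 inhibitors, Cdkn2c (p18) was higher at each later stage. It was found at 0.0634 FPKM (0.0110 to 0.200), 1.05 (0.734 to 1.46) and 2.88 (2.37 to 3.45). The E11.5 value rests on about 2.58 reads, set beside 35.1 and 115 later. The FPKM ratio to E11.5 was 16.6 at E13.5 (counting interval 4.87 to 100.3) and 45.3 at E15.5 (14.0 to 266), and the changes on the log2(FPKM + 1) scale were 0.95 and 1.87. The intervals of the 3 libraries did not overlap.

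Cdkn2d (p19) was the most abundant INK4 gene at 3.17, 3.91 and 5.91 FPKM. It is listed at 2 places on chromosome 9 of mm9, chr9:21092907-21095653 and chr9:123836859-123839607, with nearly equal values at each, so its reads could be split between copies and the sum is uncertain. Cdkn2b (p15) was lower at the later stages, at 0.421 FPKM (0.263 to 0.640), 0.121 (0.0397 to 0.281) and 0.0762 (0.0200 to 0.199). Cdkn2a, the locus of p16 and p19Arf that is known from senescence, was at 0.0359 FPKM at E11.5, about 1.23 reads, and listed at 0 at E13.5 and E15.5. A count of 0 reads there allows levels of up to 0.107 and 0.0897 FPKM, the worth of 3 reads. The INK4 sum went from 3.69 through 5.09 to 8.86 FPKM, of which Cdkn2c held 1.72%, 20.7% and 32.5%. With the highest transcript of each gene alone, the share of Cdkn2c at E15.5 was 48.4%.

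The CIP/KIP members were also low. Cdkn1a (p21), a target of p53, was at 2.30 FPKM (1.96 to 2.68), 2.17 (1.80 to 2.58) and 4.77 (4.27 to 5.32), so the E15.5 library alone was high. Cdkn1b (p27) was at 3.12, 3.72 and 3.08 FPKM, with overlapping intervals at E11.5 and E15.5. The family's remaining gene, Cdkn1c (p57), is no member but stood far above both, at 91.3, 165 and 324 FPKM. With it the CIP/KIP sum was 96.8, 171 and 332 FPKM, of which Cdkn1c held 94.4%, 96.5% and 97.6%. That sum was 0.950, 1.35 and 2.14 times the D cyclin sum.

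Pocket proteins restrain E2F factors. Rb1 was at 1.57, 2.45 and 3.82 FPKM, a change of 0.91 over the course, and its locus overlaps Lpar6, which was highest at E11.5. Rbl1 (p107), itself known as an E2F target, was at 3.02, 3.53 and 1.81 FPKM, a second step of -0.69 that made it the 1 member at least 1.5-fold lower there. With its highest transcript alone that step was -0.29. The pocket proteins thus ended in opposite order, Rb1 above Rbl1 at E15.5 and below it at E11.5. Marker sums of tendon, muscle, cartilage, endothelium, erythroid cells and epidermis all increased in the same order as Cdkn2c, Rb1 and Cdkn1c. Scx, Sox9, Sox5 and Sox6, which are in these lists, were instead lowest at E15.5. The part of any of these cell types in the levels was not tested.

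**Figure D4:**
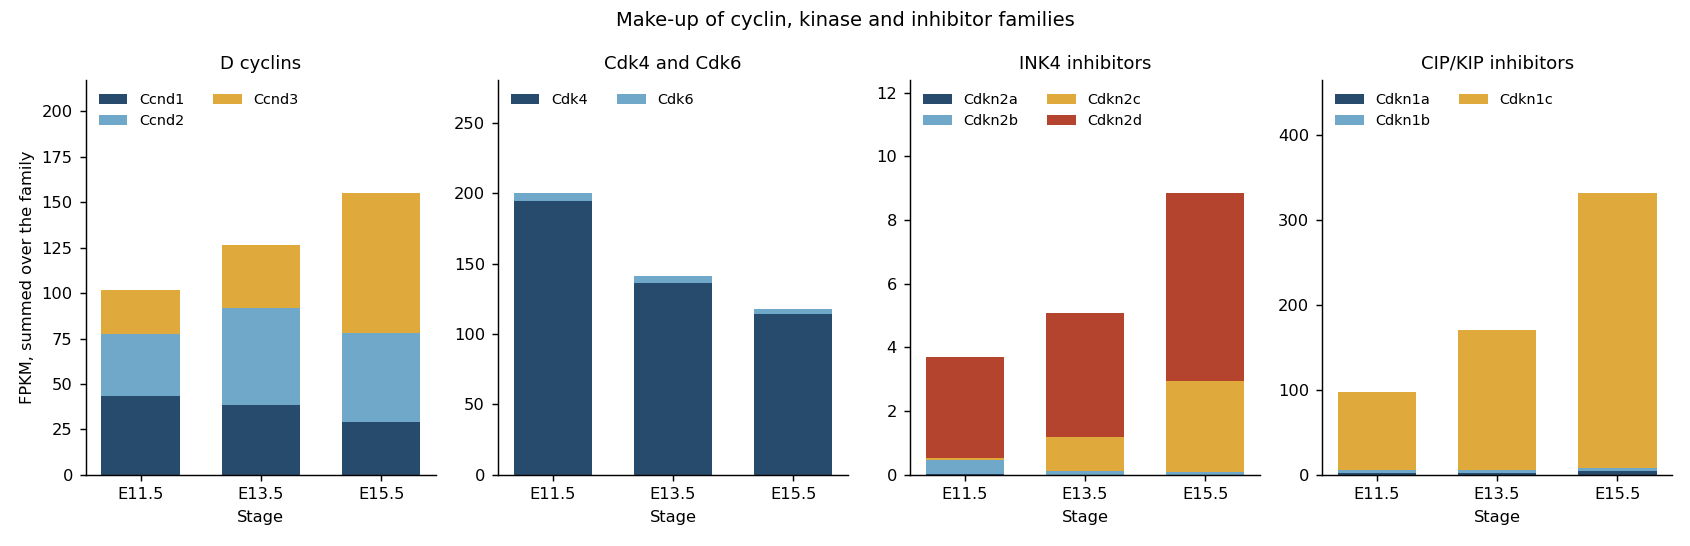
FPKM summed over the genes of 4 families (vertical axes start at 0 and differ in scale) in each library, with 1 colour for each gene and no error bars since each stage has 1 library. Ccnd3 grows from 23.8% to 49.8% of the D cyclin sum, the Cdk4 and Cdk6 sum shrinks from 200 to 118 FPKM, and Cdkn2c and Cdkn1c grow within their families.

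The paths of the 43 members over the 3 stages differed by role. Lower at E13.5 and then higher at E15.5 were 18 of 43, against 20.7% of 10928 genes. With rescaled libraries they were 10, against 9.81% of all genes. Lower at each stage were 15, against 21.9%, and 22 with rescaled libraries, against 29.7%. Higher at each stage were 6, namely Ccnd3, Ccne2, Cdc25b, Cdkn2c, Cdkn2d and Rb1, against 34.3% of all genes. The 4 with a peak at E13.5 were Ccnd2, Mki67, Cdkn1b and Rbl1, against 23.1% of all genes. With size factors 5 were higher at each stage, without Cdc25b, against 29.9% of all genes. With the same factors 3 had the peak, without Mki67, against 20.8%. With rescaled libraries 7 were higher at each stage, against 24.6%, and 4 had the peak, against 35.9%. With its highest transcript alone Rbl1 had a first step of -0.01 and so no peak. Highest at E11.5 were 10 of the 11 S phase genes and 13 of the 15 mitosis genes, with no such share counted over all genes. As a share of estimated reads, the 45 genes took 0.822%, 0.627% and 0.539% in stage order. In the second step that share was lower although their own reads went up, from about 75002 to 90371. The reads on all transcripts went up more, from about 12000000 to 16800000. The summed level of the 45 genes was 1024, 778 and 813 FPKM.

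Other genes of the cycle, in 6 lists by textbook role that hold 150 genes of which 149 were compared, were described in the same way. In the first step 42.6% of all genes were lower, 4.7% were at least 1.5-fold lower and 14.7% at least 1.5-fold higher. Of 40 genes of the replication machinery, 36 were lower in the first step, 10 of them at least 1.5-fold, with a median of -0.40. Of 50 genes of the spindle, kinetochore and cytokinesis, 46 were lower, 13 of them at least 1.5-fold, with a median of -0.37. In neither list was a gene at least 1.5-fold higher. From E13.5 to E15.5 the medians of these lists were -0.05 and -0.05, with 1 gene each at least 1.5-fold lower, beside 3.43% of all genes. The ubiquitin ligases of the cycle, which remove cyclins and inhibitors, had a median of 0.05 in the first step that turned to -0.02 with size factors, and none of 18 reached 1.5-fold in either step. The 3 genes of the CDK-activating kinase ranged from -0.17 to 0.16 in the first step and from -0.42 to 0.17 in the second.

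Large decreases in the first step among genes of at least 5 FPKM on average were those of Ccnf, a cyclin of an SCF ubiquitin ligase (9.18, 3.55 and 4.37 FPKM), and the mitotic kinesins Kif2c (14.4, 6.92 and 6.34) and Kif22 (14.9, 7.85 and 7.81). Dut, which clears dUTP from the nucleotide pool, followed at 17.8, 8.84 and 11.2 FPKM, and the replisome gene Cdc45 at 10.5, 5.59 and 6.58 FPKM. In each of these 5 the E11.5 library was the highest. Over the whole course the decreases of Dbf4, the activator of the Cdc7 kinase (13.9, 8.67 and 6.10 FPKM), Gins1 of the replicative helicase (10.9, 6.38 and 4.72) and the kinesin Kif20a (14.9, 8.56 and 7.23) joined those of Kif2c and Ccnf. In the second step the largest decreases among genes of at least 5 FPKM on average ran from -0.67 for the kinetochore gene Spc25 (6.84, 8.26 and 4.81 FPKM) to -0.45 for Dbf4, with Gmnn at -0.50, Cdc7 at -0.47 and the antiproliferative gene Btg1 at -0.57 between them.

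The list of other brakes and checkpoint genes was mixed. In the first step 6 of 19 were at least 1.5-fold higher and 1 lower, beside 14.7% and 4.7% of all genes, and the list median of 0.08 was close to the 0.07 of all genes. Its second-step median was -0.16 beside 0.04 for all genes, with 10 of 19 lower. Among the 6 lists' genes of at least 5 FPKM on average, those with the 5 largest increases in a step or over the course were Cdkn1c, given above, 4 further genes of this list, Myc and Pold2. Gadd45g, a growth arrest gene, was at 5.19, 15.01 and 12.0 FPKM, and its relative Gadd45b at 2.82, 6.86 and 9.27 FPKM. Btg2, an antiproliferative gene, was at 4.22, 6.86 and 9.81 FPKM. Tob1, of the same family as Btg2, was highest at E15.5 (10.9, 9.80 and 15.6 FPKM). From the other lists, Myc, a driver of growth and proliferation, was at 7.20, 11.2 and 21.6 FPKM, and the DNA polymerase subunit Pold2 at 10.2, 10.7 and 15.2 FPKM.

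**Figure D5:**
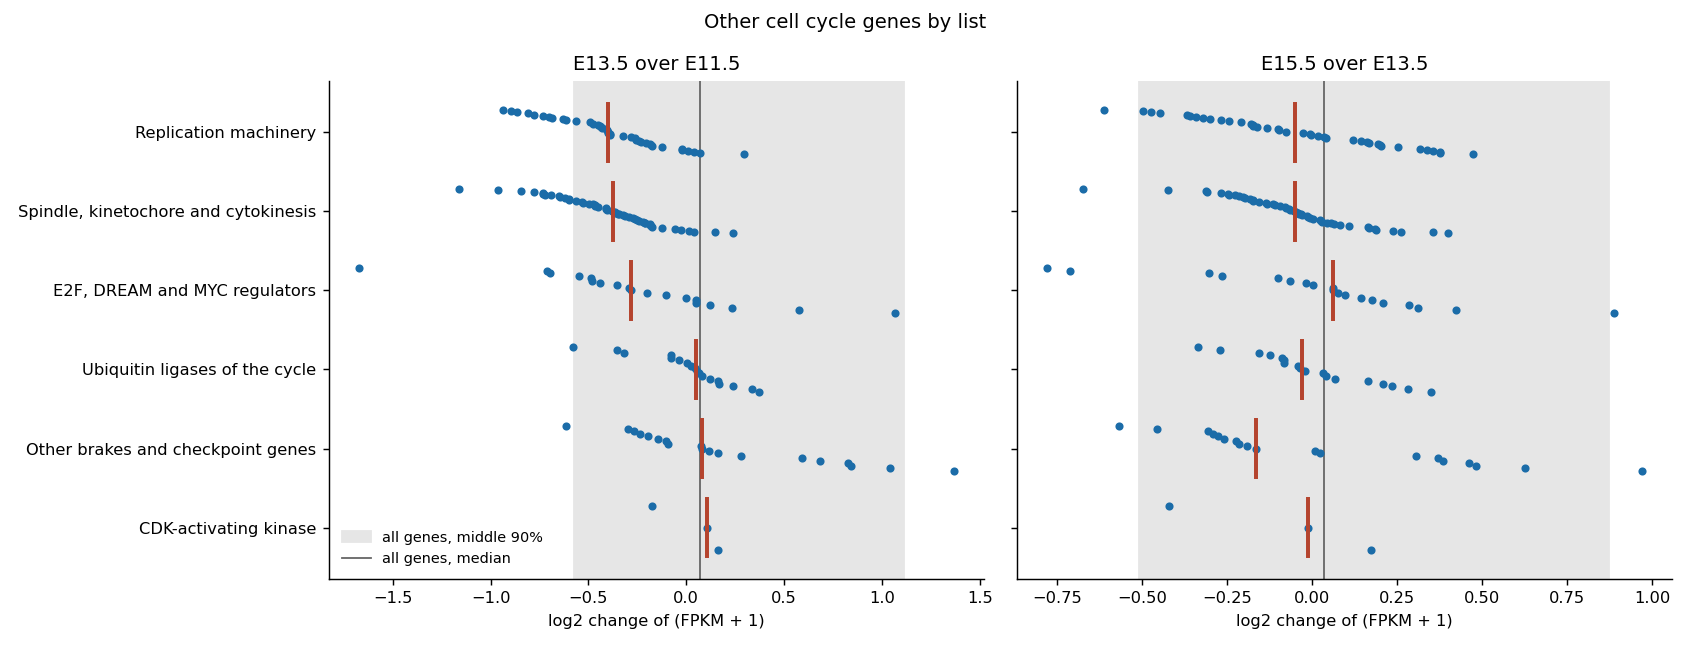
Change in log2(FPKM + 1) (horizontal axis) of 149 other cell cycle genes in 6 lists (rows), 1 point for each gene, for the first step (left) and the second (right), with a red bar at each list's median, a grey line at the median of all genes and a grey band for their middle 90%. Most replication and spindle genes lie left of 0 in the first step, with medians of -0.40 and -0.37, and around -0.05 in the second.

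Promoter letters and stage changes were then set side by side. Among the 12 mitosis genes with a promoter entry, the 10 with CHR letters had a median first step of -0.52, and the 2 without, Ccnb1 and Birc5, one of -0.49. Over all drivers the 13 with CHR letters had a median of -0.59 and the 17 without one of -0.42, a contrast that follows the groups, since 10 of the 13 are mitosis genes. Among genes that are no members, 511 with both CHR and CCAAT letters had a median of -0.02 and 7.63% of them were at least 1.5-fold lower, against 0.07 and 4.08% for 7209 genes without both. Replication and spindle genes of the lists above are no members and were not taken out of this pool. Their part in that contrast was not tested. Mki67, whose printed promoter holds both motifs, differed little between stages, whereas Rrm2, whose printed promoter has CCAAT alone, had the largest decrease of the members in the first step.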

How the data were processed

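Samples were grouped by the age in the labels, 1 library each, so no test and no leave-one-out was possible. The deposited tables list FPKM, made by the authors for each of 28107 RefSeq transcripts, with a coverage column, a signal of mean read depth, per the file headers. The submitters' processing notes name Bowtie 0.12.7, TopHat 1.4.1 and the build mm9. The strand setting is not given in the sources used here, so overlapping genes cannot be told apart. The NuGEN Ovation kit amplifies cDNA, per the labels' protocols, a source of noise outside the counting intervals.

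FPKM of transcripts was summed per symbol (3793 symbols have several), with a pseudocount of 1 on the log2 scale. Genes were compared where their mean reached 1 FPKM and their status was OK, and were counted at 1.5-fold or 2-fold on that scale. Depth was estimated from the covered bases of the lowest values, with 43.9 bases taken as 1 read. The members and lists were chosen with earlier results of these data known. From the lists, the 5 largest increases and 5 largest decreases per comparison at a mean of at least 5 FPKM were named. Promoters are from RefSeq (GRCm38.p6). A planned protein comparison was not made. Alternatives were another pseudocount, 2 scalings, 1 transcript per gene, other filters and a shorter promoter window. Scripts ran in Python 3.11.15 with pandas 2.3.3, numpy 2.4.6 and scipy 1.17.1 and were tested on simulated data.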

Additional observations from a re-analysis of the deposited data

How the results depend on the processing

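With 1 library per stage the spread between embryos, sorts and library preparations was not measured, and genes under about 1 FPKM, Cdkn2c at E11.5 among them, are limited by depth. No called change reversed under any alternative. Rescaling moved the median of all genes in the second step from 0.04 to -0.13, so changes are best read relative to it.

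Members at least 1.5-fold higher in the first step were 1 with size factors and 1 at a mean of at least 5 FPKM (main 2), and 2-fold higher 1 with a pseudocount of 0.1 (main 0). In the second step 1.5-fold higher members were 7 with a pseudocount of 0.1 and 2 at 5 FPKM (main 4), and 2-fold higher 4 with a pseudocount of 0.1 and 0 with rescaled libraries (main 2). At least 1.5-fold lower there were 2 with rescaled libraries, 0 with the highest transcript alone and 0 at 5 FPKM (main 1). Over the course, 1.5-fold higher members were 1 at 5 FPKM (main 5), 2-fold higher 4 with a pseudocount of 0.1 and 1 at 5 FPKM (main 2), and 2-fold lower 5 with size factors and 5 with rescaled libraries (main 3). The stricter filter acts by leaving out low genes. A pseudocount of 0.1 enlarges changes of low genes, such as the first step of Cdkn2c, 2.82 in place of 0.95. Rescaling took Ccnd3 and Ccne1 below 2-fold in the second step, at 0.94 and 0.87. The highest transcript alone gave Rbl1 -0.29 in that step. The remaining moves were not traced to genes.

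The first-step G1 median was -0.24 with size factors and -0.25 at 5 FPKM. In the second step rescaling gave -0.19 for S phase and -0.15 for mitosis, and no filter gave 0.24 for inhibitors and pocket proteins. Over the course, size factors and rescaling gave -0.50 and -0.56 for S phase and -0.72 and -0.78 for mitosis, rescaling gave 0.093 for G1, and no filter 0.36 for inhibitors and pocket proteins, which have no value at 5 FPKM. With 150 bases before the start, CHR letters stood in 10 of 12 mitosis promoters as before, and in 1 S phase promoter and 0 of inhibitors.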

Other observations

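Regulators of the cycle genes differed within families. The genes named here were chosen after their values were seen. Mycn, the MYC family gene of early limb bud mesenchyme, was at 8.24, 1.90 and 0.769 FPKM in stage order, changes of -1.67 and -0.71, while Myc was highest at E15.5. Foxm1 and Mybl2, transcription factors of genes of G2 and mitosis, were at 18.3, 10.9 and 13.53 FPKM and at 5.07, 2.70 and 3.09 FPKM, both lowest at E13.5. Rbl2 (p130), the pocket protein of resting cells, was at 1.03, 3.24 and 4.68 FPKM, higher at each stage, in contrast to its relative Rbl1 at 1.81 FPKM at E15.5. E2f5, a repressive E2F factor, was at 6.94, 4.43 and 2.16 FPKM. Trp53, which encodes p53, was at 67.0, 43.4 and 44.1 FPKM, whereas its target Cdkn1a was highest at E15.5. The list of 19 E2F, DREAM and MYC regulators had a median first step of -0.28 beside 0.07 for all genes. In it 3 genes were at least 1.5-fold lower and 1 higher, beside 4.7% and 14.7% of all genes.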
